A study of Arabidopsis thaliana with 24 samples.

Results

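In roots of Arabidopsis thaliana, 48 probe sets had a higher signal at - Fe than at + Fe in both genotypes and in every harvest week, while their mean leaf signal was not higher at - Fe beyond a set limit in either genotype. The probe sets, called members here, were chosen by these values. For each week the log2 of the signal plus 16 at + Fe was subtracted from that at - Fe, and the smallest of the 6 root differences (3 weeks in wild type, 3 in nas4x-1) had to be above 0.3, with a mean leaf difference under 0.3 in each genotype. Of 22746 probe sets on the ATH1 array, controls left out, 111 had all 6 root differences above 0.3. Of these 111, 44 were over the leaf limit, 19 belonged to the study's list of metal homeostasis genes and were dropped, among them genes of Fe uptake and of coumarin synthesis, and 48 remained. As a result, the root and leaf differences of Fe supply given here describe the choice of the members and are no test of it.

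The arrays came from rosette leaves and roots of wild type plants of ecotype Columbia and of nas4x-1, a quadruple mutant in the same background with T-DNA insertions in the 4 nicotianamine synthase genes. All plants grew for 4 weeks in hydroponic solution of diluted Hoagland salts with 10 µM FeNa-EDTA, and then for 7 days either in the same solution (+ Fe) or without Fe (0 µM FeNa-EDTA, - Fe), and were 5 weeks old at harvest. Each of the 8 groups of genotype, organ and Fe supply had 3 arrays, 1 from each of 3 consecutive weeks, 24 in all. The number of plants behind an array was not given in the sources used here. Nicotianamine is a chelator that moves Fe and other metals within the plant, and all nas4x-1 arrays, + Fe included, come from plants with reduced synthesis of it.

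Roots that lack Fe switch on a set of genes under the control of bHLH transcription factors. Their best known products acidify the medium, reduce ferric Fe at the root surface, export coumarins that mobilise Fe, and take up ferrous Fe through the transporter IRT1. Leaves share part of the signalling genes but not the uptake machinery. E3 ubiquitin ligases with hemerythrin domains (BTS and the BTSL proteins) are known as brakes of this response. All samples are bulk tissue, so more cells of a type and more RNA per cell cannot be told apart in any of the differences below.

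EXP7, a gene of root hairs and the only 1 of 12 root markers with a probe set matched to it alone, had signals of 79.5 to 261 in roots and 0.592 to 10.1 in leaves. Of 12 leaf markers 3 were measured, and their summed signal was 5520 to 7407 in leaves and 278 to 2108 in roots. Of these, RCA was at 29.3 to 103 in roots and at 3723 to 4770 in leaves. Within the roots SBPASE, an enzyme of the Calvin cycle, was at 2.45 to 11.6. GLYK, glycerate kinase, did not separate the organs, with 225 to 2008 in roots and 420.5 to 815 in leaves (roots minus leaves -0.054, adjusted p = 0.903). Its mean root difference of Fe supply was 0.69 in wild type and 0.60 in nas4x-1. The sum of leaf markers in roots lay between 278 and 1758 at + Fe in wild type and between 370.4 and 2108 at - Fe. In nas4x-1 it lay between 319 and 1478 at + Fe and between 449 and 1155 at - Fe. RCA and SBPASE were small beside these root sums, which mostly follow GLYK and are no measure of leaf tissue in roots. The part of leaf tissue in the members' differences was not tested. NAS1, one of the mutated genes, had root signals of 94.1 to 943 in wild type and 8.8 to 31.2 in nas4x-1, with no overlap, and leaf signals of 85.8 to 431 and 5.33 to 23.2. NAS2 was higher in the mutant (94.0 to 345 against 25.5 to 168 in roots), NAS3 was at 3.46 to 10.1 in nas4x-1 roots and at 8.46 to 11.4 in wild type roots, and NAS4 overlapped in roots (16.6 to 36.8 in nas4x-1 against 5.88 to 217). Where the insertions lie relative to the probes is not known here, so these signals are no measure of functional transcript.

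Of the 48 probe sets, 23 were matched to a single gene, which makes 22 genes because AT3G57160 had 2 probe sets, and the other 25 are named here by their probe set. The median of the mean root difference was 0.89 in wild type (lowest 0.41, highest 2.32) and 0.84 in nas4x-1 (0.37 to 2.55), against -0.021 and -0.0053 over all probe sets, all on the log2 scale. In leaves the medians were 0.025 and -0.0051. A mean root difference of at least 1 was reached in both genotypes by 11 of 48 members (0.281% of all probe sets). The 3 - Fe root arrays lay above the 3 + Fe arrays for 27 of 48 members in wild type (3.58% of all probe sets) and for 34 in nas4x-1 (4.62%), and for the rest the arrays of both Fe supplies overlapped. At an adjusted p under 0.05 no member passed for the root difference in either genotype, beside 0% of all probe sets in wild type and 0.0132% in nas4x-1. An unadjusted p under 0.05 was found for 33 and 30 members (4.37% and 3.62% of all probe sets). A fit with the week as a replicate block gave 43 in each genotype (8.12% and 7.75%), and again 0 passed after adjustment (lowest adjusted p = 0.13 in wild type and 0.0516 in nas4x-1). These counts restate the choice of the members. Except for the ANOVA named below, the p-values here come from limma. They rest on the spread of weekly arrays within groups, pooled over the groups fitted together. This spread is drawn towards that of probe sets of similar intensity.

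**Figure D1:**
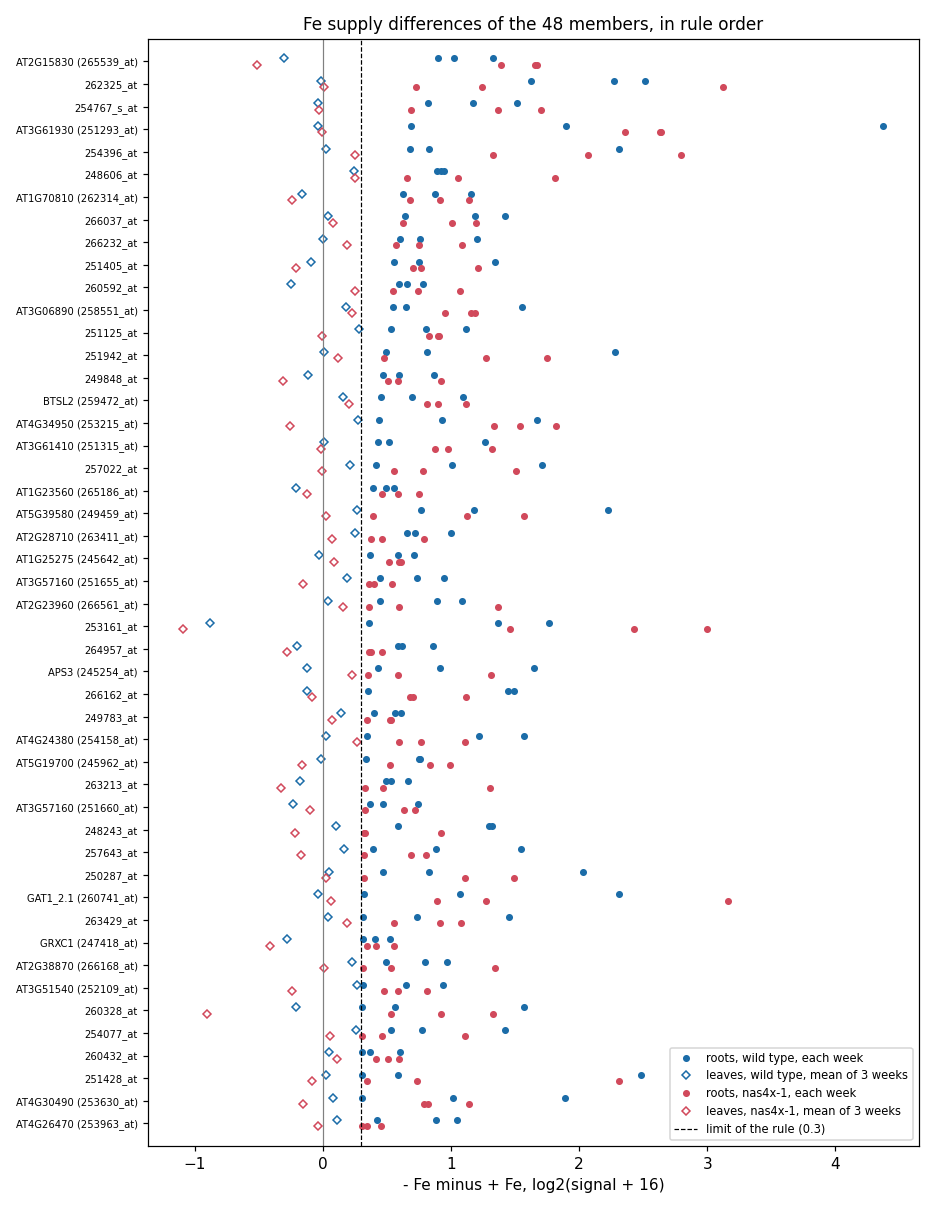
Difference of - Fe minus + Fe in log2(signal + 16) for each of the 48 members, from top to bottom in the order of the smallest root difference. Filled points are the root differences of single weeks (blue wild type, red nas4x-1), open diamonds the mean leaf differences, and the dashed line marks the limit of 0.3. Filled points lie to the right of the line by the rule, with the widest scatter for AT3G61930 in wild type, from 0.69 to 4.38.

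Among the members with a known part in Fe sensing, BTSL2 (AT1G18910), a RING E3 ubiquitin ligase with hemerythrin domains, was similar in the weeks of each group. Its signals in wild type roots of weeks 1 to 3 were 152, 133 and 178 at + Fe and 256, 301 and 249.6 at - Fe. In nas4x-1 roots they were 189.7, 171 and 243 at + Fe and 429.6, 332 and 439.6 at - Fe. The - Fe arrays did not overlap with the + Fe arrays in either genotype, and the highest arrays were those of nas4x-1 at - Fe. The mean difference was 0.75 in wild type and 0.94 in nas4x-1. In leaves its signal ran from 17 to 38.2 (median 26.4), with mean differences of 0.15 in wild type and 0.20 in nas4x-1.

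AT2G15830 led the order, with the largest of all the smallest differences, 0.90. Wild type roots gave 81.7, 131 and 109.6 at + Fe and 166, 352 and 239.6 at - Fe in weeks 1 to 3, and nas4x-1 roots gave 62.4, 87.3 and 149 at + Fe and 231, 314 and 417 at - Fe. Both genotypes were without overlap between Fe supplies. Its leaf signal was unsteady, from 27 to 275 (median 55.9). The mean leaf difference was -0.30 in wild type and -0.52 in nas4x-1, the latter with a high + Fe array of 275 in week 1 beside 27 and 50.2 in the others.

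AT3G61930 had the largest mean difference, 2.32 in wild type and 2.55 in nas4x-1. Its signals were 69.1, 20.5 and 30.0 at + Fe and 121, 742 and 155 at - Fe in wild type, and 89.6, 114 and 108 at + Fe and 527, 796 and 754 at - Fe in nas4x-1. Week 2 of wild type stood out, with a - Fe signal of 742 where the other weeks had 121 and 155, whereas the 3 weeks of nas4x-1 were close to each other at both Fe supplies. The highest of its 12 leaf arrays was 5.49.

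Sulfur and redox metabolism was represented by APS3 and GRXC1. APS3 (AT4G14680) encodes an ATP sulfurylase, which carries out the first step of sulfate assimilation, and had 47.8, 66 and 77 at + Fe and 105, 241 and 109.7 at - Fe in wild type roots. In nas4x-1 roots it had 91.2, 84.7 and 104 at + Fe and 121, 234 and 164 at - Fe, so week 2 had the highest - Fe value in both genotypes. GRXC1 (AT5G63030), a glutaredoxin, had small and even root differences, all 6 between 0.31 and 0.56. Its wild type signals were 204, 126 and 154 at + Fe and 276, 188 and 195 at - Fe, which overlap between the Fe supplies, with week 1 the highest at both. In nas4x-1 it had 170.1, 161 and 191 at + Fe and 258, 220.0 and 247 at - Fe, without overlap. Its mean leaf difference was -0.28 in wild type and -0.41 in nas4x-1.

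A pair of transporter genes differed in their levels. AT4G34950, of the major facilitator superfamily, had 61.7, 100.1 and 52.8 at + Fe and 132, 353 and 77.2 at - Fe in wild type roots and 61.5, 96.4 and 76.7 at + Fe and 209, 382 and 218 at - Fe in nas4x-1 roots. Week 2 was the highest at both Fe supplies in both genotypes, and only nas4x-1 was without overlap. Its leaf signal was much above that in roots, from 400.1 to 1382 (median 995), with leaf differences of 0.27 in wild type and -0.26 in nas4x-1. AT5G19700, a MATE efflux family protein, was dim, with root signals from 0.883 to 71.4 (median 16.8), and its differences ran from 0.34 to 0.996.

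GAT1_2.1 (AT1G15040) and AT2G23960 are both of the class I glutamine amidotransferase type by domain, which does not settle their role. GAT1_2.1 differed between weeks by more than between Fe supplies, with 106, 9.94 and 1.36 at + Fe and 592, 16.3 and 20.4 at - Fe in wild type roots and 14.9, 2.04 and 9.76 at + Fe and 261, 17.4 and 46.2 at - Fe in nas4x-1 roots. In each genotype the week 1 array at - Fe exceeded every other array by a wide margin. AT2G23960 had 39.97, 61.5 and 28.6 at + Fe and 60.3, 148 and 66.7 at - Fe in wild type and 67.2, 59 and 56 at + Fe and 90.8, 178 and 93 at - Fe in nas4x-1, and here week 2 was the highest at - Fe.

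Some members encode proteins with calcium binding domains. AT1G70810, with a C2 domain, had 212, 81 and 65 at + Fe and 494, 162 and 109 at - Fe in wild type roots and 134, 85.9 and 88 at + Fe and 267, 209 and 151 at - Fe in nas4x-1 roots. The wild type + Fe array of week 1 was above the - Fe arrays of both later weeks, so the groups overlapped, although every week gave a difference of at least 0.63. AT4G26470, an EF-hand protein and the last probe set inside the root limit, had 158, 175 and 144 at + Fe and 343, 336 and 198 at - Fe in wild type roots and 142, 247 and 204 at + Fe and 185, 309 and 284 at - Fe in nas4x-1 roots. Its differences ran from 0.42 to 1.05 in wild type and from 0.31 to 0.45 in nas4x-1.

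Of the genes of the cell wall and of defence, AT5G39580, a class III peroxidase, had 109, 53.3 and 73.4 at + Fe and 569, 141 and 136 at - Fe in wild type roots. In nas4x-1 roots it had 78.1, 71.7 and 92.8 at + Fe and 107, 244 and 221 at - Fe. The wild type array of week 1 at - Fe was the highest, while week 1 of nas4x-1 showed the smallest of its 6 differences, 0.39. AT2G38870, a serine protease inhibitor of the potato inhibitor I family, had root signals from 45.2 to 382 (median 142) and differences between 0.31 and 1.34.

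AT2G28710, a zinc finger protein of the C2H2 type, had 43, 37.5 and 30.8 at + Fe and 102, 72.3 and 57.6 at - Fe in wild type roots and 58.3, 61.7 and 60.3 at + Fe and 80.6, 90.8 and 116 at - Fe in nas4x-1 roots, without overlap between Fe supplies in either genotype. AT4G30490, similar to the ATPase AFG1, had differences from 0.31 in week 3 to 1.89 in week 2 of wild type and from 0.79 to 1.14 in nas4x-1.

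For the other genes no role is given here. AT3G06890 had 55.2, 28.7 and 32.1 at + Fe and 96, 115 and 54.4 at - Fe in wild type roots and 58.8, 65.8 and 57.2 at + Fe and 151, 143 and 151 at - Fe in nas4x-1 roots. The 3 nas4x-1 arrays of each Fe supply were close together, and all 3 at + Fe were above the 3 of wild type. AT3G61410 was even at + Fe in wild type, with 67.8, 65.2 and 66 at + Fe and 96.9, 179.8 and 101 at - Fe in wild type and 69.9, 88.6 and 101 at + Fe and 199, 176 and 215 at - Fe in nas4x-1. No leaf array of it exceeded 1.01.

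AT1G23560 was dim in roots, with 46.1, 12.4 and 20.3 at + Fe and 75.1, 21.3 and 35.2 at - Fe in wild type and 31, 14.8 and 26.2 at + Fe and 48.6, 36 and 47.3 at - Fe in nas4x-1, and overlapped in wild type, where week 1 was the highest. AT1G25275 was bright, with 912, 346 and 484 at + Fe and 1506, 451 and 736 at - Fe in wild type and 697, 459 and 580.4 at + Fe and 1073, 665 and 886 at - Fe in nas4x-1. Its differences were small and even, from 0.37 to 0.71, and the weeks overlapped. The first probe set of AT3G57160 (251655_at) had 12.6, 2.01 and 1.6 at + Fe and 22.9, 14 and 18 at - Fe in wild type and 19.6, 2.78 and 9.1 at + Fe and 31, 11.3 and 16.2 at - Fe in nas4x-1. These signals, from 1.6 to 31.0, are close to the offset of 16, which shrinks their differences. Its second probe set (251660_at) had mean differences of 0.53 in wild type and 0.56 in nas4x-1. The mean differences of AT3G51540 were 0.63 in wild type and 0.63 in nas4x-1. Those of AT4G24380 were 1.04 in wild type and 0.83 in nas4x-1.

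**Figure D2:**
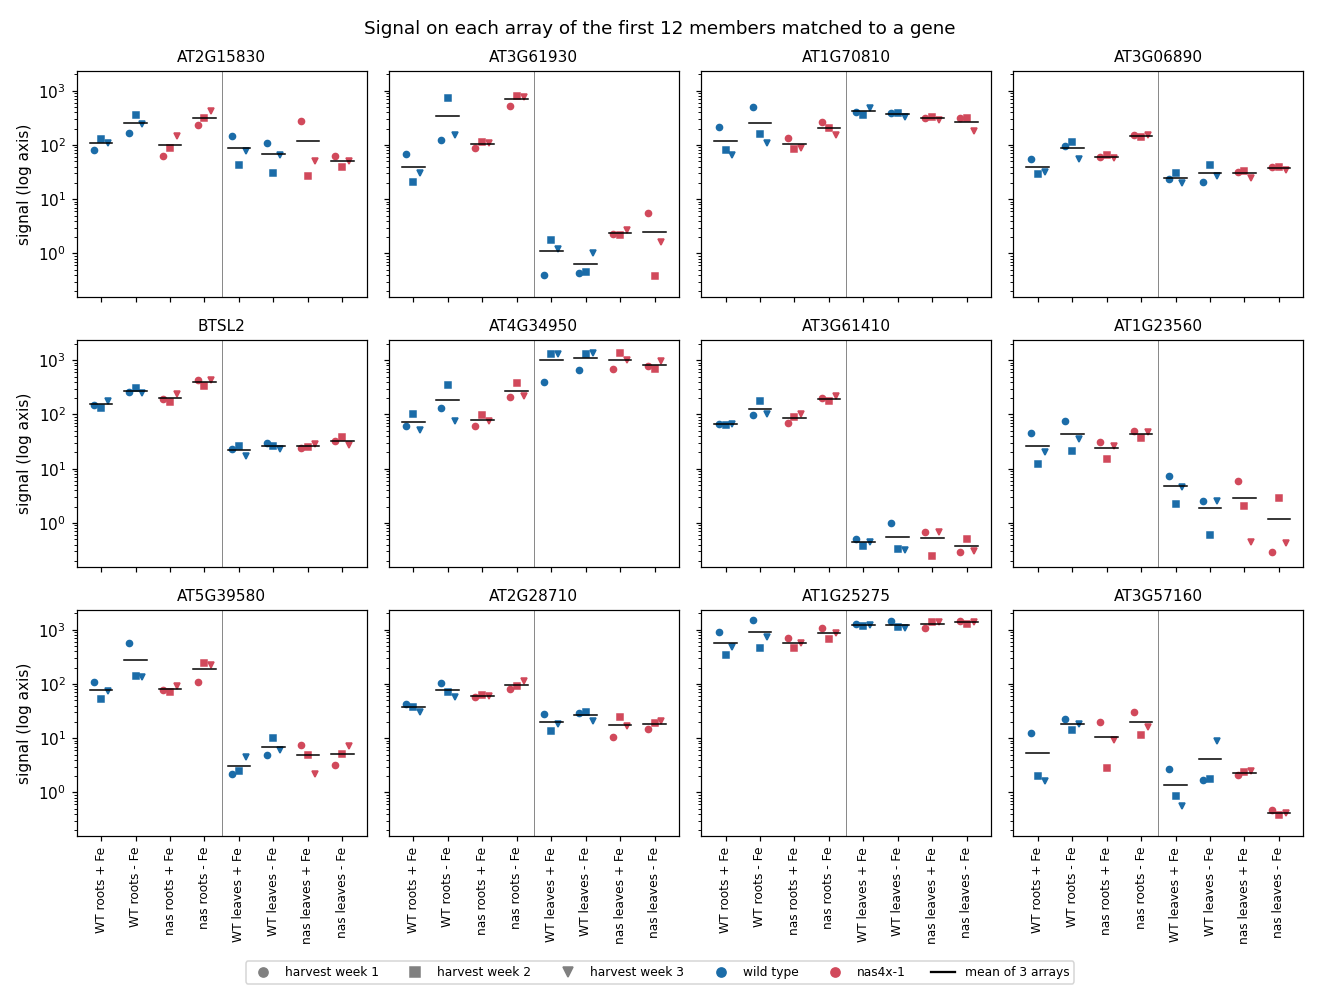
Signal (log axis) on each of the 24 arrays for the first 12 members matched to a gene, with roots on the left and leaves on the right of the grey line. Symbols stand for harvest weeks, colours for genotypes and short black lines for the mean of 3 arrays. BTSL2 stays between 133 and 439.6 in roots and between 17.0 and 38.2 in leaves, while AT4G34950, AT1G70810 and AT1G25275 are brighter in leaves.

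Among the 25 members with no gene matched, 262325_at had the largest mean root difference, with 244, 17.9 and 39.1 at + Fe and 1471, 148 and 154 at - Fe in wild type and 70.9, 20.1 and 57.2 at + Fe and 739, 43.9 and 157 at - Fe in nas4x-1, and all leaf arrays were at 4.7 or below. Another, 251942_at, had 244, 253 and 257 at + Fe and 350.2, 1292 and 464 at - Fe in wild type and 642, 398 and 608 at + Fe and 899, 1374 and 1489 at - Fe in nas4x-1. Here the + Fe arrays of wild type were close together (244 to 257), whereas the - Fe array of week 2 reached 1292. The 25 ranged in the mean root difference from 0.43 to 2.14 in wild type and from 0.40 to 2.29 in nas4x-1, and in the median root signal from 14.04 to 536. In leaves, 253161_at had the lowest difference of all members. Its leaf signal ran from 30.1 to 369 (median 132) and its mean leaf difference was -0.88 in wild type and -1.09 in nas4x-1. The next lowest in nas4x-1 was 260328_at, with mean leaf differences of -0.21 in wild type and -0.91 in nas4x-1. A mean leaf difference below -0.3 in both genotypes was found for 2 of 48 members, AT2G15830 and 253161_at (3.2% of all probe sets), and 42 of 48 stayed within 0.3 of 0 in both (68% of all probe sets). The leaf limit of the rule acts from above only, so the values below -0.3 were not part of the choice. No member could have a mean leaf difference above 0.3, so the count of 42 is in part set by the rule.

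The values ran on across the limits. The last inside the root limit were AT4G30490, with a smallest difference of 0.307, and AT4G26470, with 0.305, and the first outside were AT5G66650 with 0.298 and 262518_at with 0.295. AT5G66650 had 78.9, 10.5 and 9.38 at + Fe and 221, 16.5 and 29.7 at - Fe in wild type and 34.4, 8.5 and 6.61 at + Fe and 49, 15.7 and 36.8 at - Fe in nas4x-1. At the leaf limit 251125_at was inside with 0.28 in wild type, and AT5G08350 was outside with 0.31. Wild type leaves had 9.64, 1.13 and 1.56 at + Fe and 10.7, 7.48 and 6.06 at - Fe for 251125_at and 20.5, 14.6 and 12.6 at + Fe and 22.5, 22 and 25.2 at - Fe for AT5G08350. The limit in leaves removed 19 probe sets for wild type only, 8 for nas4x-1 only and 17 for both.

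The members were unequal over the harvest weeks. The mean root level over the 4 arrays of a week was highest in week 1 for 28 of 48 members (40.6% of all probe sets) and lowest in week 2 for 23 (30.2%). The level of week 1 exceeded that of week 2 by a median of 0.31 and by at least 2 for 5 members (0.163% of all probe sets), which were 262325_at, 248606_at, 253161_at, GAT1_2.1 and 251428_at. At + Fe, 251428_at had 472, 3.99 and 6.03 in wild type roots of weeks 1 to 3 and 28.7, 8.65 and 7.35 in nas4x-1 roots. At - Fe it had 2718, 8.73 and 17 and 206, 25.1 and 13.7. Week 1 of wild type was thus far above the other weeks at either Fe supply. Likewise, 253161_at had 682, 19.3 and 25.3 at + Fe and 2361, 29.2 and 90.4 at - Fe in wild type and 113, 24.4 and 18.1 at + Fe and 675, 95.2 and 256 at - Fe in nas4x-1. The rule compares arrays of the same week, so a level shared by a week cancels except through the offset. A week stands for its plants, its harvest and its arrays together, which cannot be told apart.

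**Figure D3:**
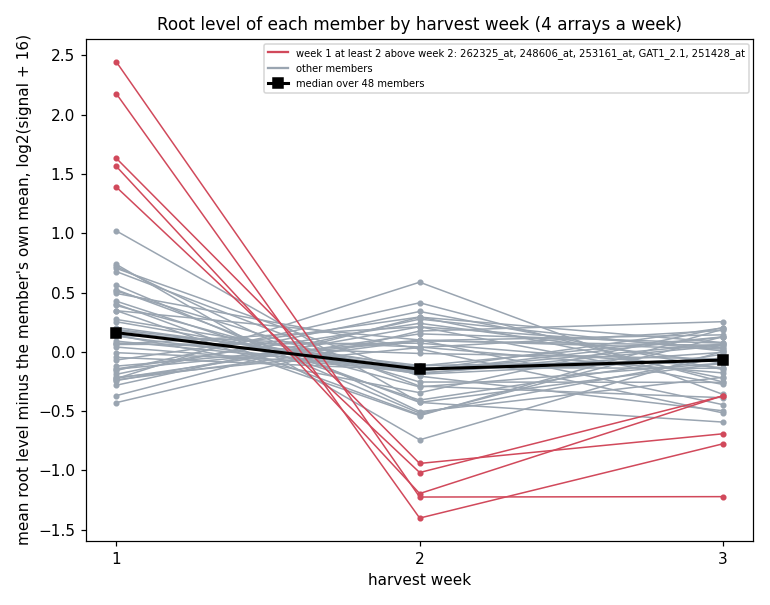
Mean root level of each member in the 3 harvest weeks (4 arrays each), in log2(signal + 16) after subtraction of the member's own mean over the weeks. Red lines are the 5 members with week 1 at least 2 above week 2, grey lines the other 43, and the black line with squares is the median. The red lines drop from week 1 to week 2 by up to 3.67, while the grey lines scatter around 0 in both directions.

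The comparison of genotypes at equal Fe supply is not used by the rule, which treats both genotypes alike. In roots at + Fe, 35 of 48 members had a higher mean in nas4x-1 than in wild type (48.6% of all probe sets), with a median difference of 0.25 (lowest -1.02, highest 1.19), against -0.0044 over all probe sets. In roots at - Fe the count was also 35 (52.5%), with a median of 0.21. At both Fe supplies nas4x-1 was higher for 31 members (26.6%) and lower for 9 (25.5%). No member passed the adjusted p of 0.05 at + Fe (0.0703% of all probe sets) or at - Fe (0.0747%), while 10 members had an unadjusted p under 0.05 at each supply (1.97% and 2.66% of all probe sets). With the week as a replicate block it was 12 members at each supply (3.46% and 4.37% of all probe sets). An ANOVA on log2 signals without the offset, which took the larger of the actual and an averaged variance, gave 6 and 3 (0.668% and 0.739%). It thus differs from the main fit in scale as well as in variance. The counts describe a direction over members that share arrays, and no single member was called.

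Some members were nevertheless without overlap between genotypes. At + Fe the 3 nas4x-1 root arrays lay above the 3 wild type arrays for 14 of 48 members (3.23% of all probe sets) and below them for 0 (2.99%). At - Fe it was 4 of 48 (3.01%) and 0 (2.36%). The smallest p at + Fe was that of 266162_at, which had 183, 120.4 and 128 in wild type and 313, 265 and 365 in nas4x-1 (difference 1.06, SE 0.253, adjusted p = 0.728). At - Fe it had 237, 367 and 376 and 521, 434 and 809. AT3G61930 had the largest differences, 1.19, SE 0.528 at + Fe and 1.42, SE 0.528 at - Fe. Without the wild type array of week 2 at - Fe, it was called at - Fe (2.19, adjusted p = 0.0328), the only call of a member in a genotype comparison in the settings run. The difference of BTSL2 was 0.35, SE 0.172 at + Fe and 0.54, SE 0.172 at - Fe, higher in nas4x-1 in all 3 weeks at both. AT2G28710 had 0.53, SE 0.191 at + Fe, where its nas4x-1 arrays (58.3 to 61.7) lay above those of wild type (30.8 to 43.0).

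The direction was not equal over the weeks. The median genotype difference over members at + Fe was 0.06 in week 1, 0.30 in week 2 and 0.38 in week 3, with 26, 37 and 44 of 48 members higher in nas4x-1 (49.8%, 49.8% and 47.8% of all probe sets). At - Fe the medians were 0.04, 0.09 and 0.70, with 24, 30 and 44 members higher (52.6%, 49.2% and 49.5%). In week 1 the members with high week 1 levels were lower in nas4x-1, with differences of -3.45 at + Fe and -3.62 at - Fe for 251428_at. Leaving out the wild type array of week 1 raised the median to 0.39 at + Fe and to 0.43 at - Fe, and leaving out that of week 3 at - Fe lowered the - Fe median to 0.05.

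**Figure D4:**
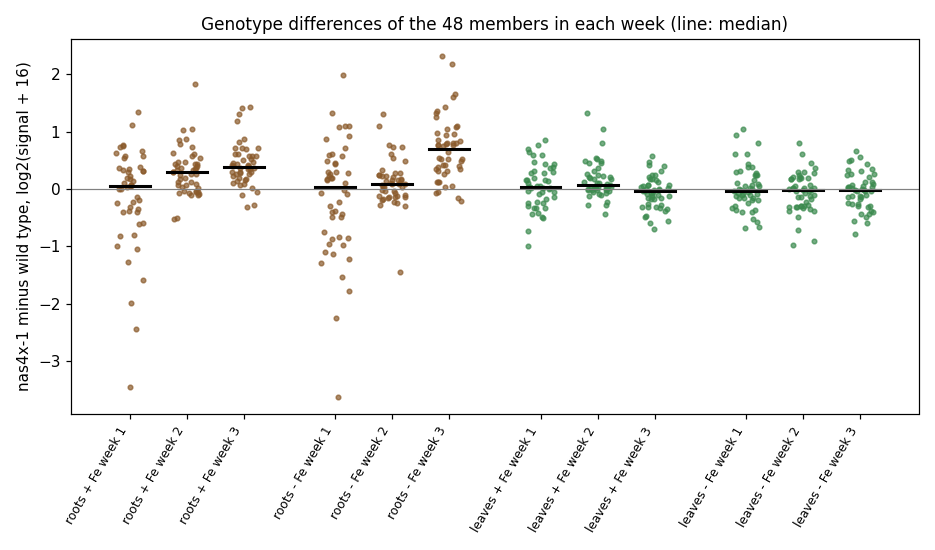
Difference of nas4x-1 minus wild type in log2(signal + 16) for each of the 48 members in each week, organ and Fe supply. Each point is 1 member and the black line is the median. Root medians are between 0.04 and 0.70, the highest in week 3 at - Fe, and leaf medians lie between -0.04 and 0.06.

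In leaves the genotypes were close for these members. At + Fe 29 of 48 were higher in nas4x-1 (48.9% of all probe sets, median 0.08) and at - Fe 20 (51.7%, median -0.03). Again 0 members were called, beside 0.0264% and 0.0659% of all probe sets. An unadjusted p under 0.05 was found for 1 and 6 (5.61% and 9.14% of all probe sets), with the ANOVA for 0 and 1 (1.69% and 2.59%). With the week as a replicate block it was 1 and 7 (9.32% and 13.9%). The offset shrinks these leaf differences for the 20 of 48 members under a signal of 16 on all 12 leaf arrays (27.7% of all probe sets). With an offset of 1 the leaf medians were 0.148 at + Fe and -0.139 at - Fe, and the root medians 0.296 and 0.230. The difference between genotypes in roots minus that in leaves, tested over all 24 arrays, had a median of 0.26 over the members and passed for 0 of 48 (0.136% of all probe sets), with 10 at an unadjusted p under 0.05 (4.84% of all probe sets) and a lowest adjusted p of 0.37 for 254077_at. The mean root difference of Fe supply, in turn, differed between genotypes by a median of 0.014 (lowest -0.54 for 248243_at, highest 1.13 for 253161_at). It was larger in nas4x-1 for 26 of 48 members (52.4% of all probe sets).

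Although chosen for a response in roots, the members were not all root genes by level. Over all arrays 44 of 48 were called (65.5% of all probe sets). Of the 48, 36 were higher in roots than in leaves (35.8% of all probe sets) and 8 were higher in leaves (29.7%), and 4 were not called. The median difference of roots minus leaves was 1.18, against 0.0068 over all probe sets. The rule did not use the mean level of an organ, but its root limit admits only probe sets with some root signal, and 0 of 48 members were under a signal of 16 on all 12 root arrays (29.4% of all probe sets). The share higher in roots is thus in part set by the choice of the members. In turn, a probe set with hardly any signal in leaves has a leaf difference near 0 on the scale with the offset and so passes the leaf limit more readily. In leaves, 20 of 48 members were under a signal of 16 on all 12 leaf arrays (27.7% of all probe sets), and 22 were at or above 16 on all 12 (54.9%). The offset shrinks a leaf difference most for the former, and less for the latter. The value of 16 is that of the offset and no limit of detection.

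The root arrays were all above the leaf arrays for 19 members (15.5% of all probe sets). The largest difference was that of 251942_at, with root signals from 244 to 1489 (median 536) and leaf signals from 0.287 to 7.27 (median 1.75) (4.96, SE 0.156, adjusted p = 3.86e-17). AT3G61410 ran from 65.2 to 215 (median 99) in roots and from 0.242 to 1.01 (median 0.409) in leaves (2.92, SE 0.0828, adjusted p = 6.74e-18). BTSL2 differed by 2.59 (SE 0.0775, adjusted p = 1.74e-17), with every leaf array at 17.0 or above, and AT4G26470 by 3.01. On this scale the differences of members that are dim in leaves are understated.

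The 8 members higher in leaves were AT1G70810, 266037_at, 260592_at, AT4G34950, AT1G25275, APS3, AT4G24380 and 254077_at. The call of 260592_at was lost in 15 of 24 fits that left out 1 array. The strongest of them was AT4G34950 (-2.76, SE 0.227, adjusted p = 5.75e-10), followed by 254077_at (-1.99, SE 0.115, adjusted p = 1.66e-12), with root signals from 33.2 to 165 (median 82.7) and leaf signals from 249.6 to 452 (median 370.4). These are the 2 members with all 12 leaf arrays above all 12 root arrays (13.1% of all probe sets). APS3 had root signals from 47.8 to 241 (median 104) and leaf signals from 119.8 to 301 (median 176) (-0.68, SE 0.151, adjusted p = 4.66e-04). Those not called were 253161_at, 251660_at of AT3G57160, GRXC1 and AT2G38870, and GRXC1 had nearly the same level in both organs (0.04, SE 0.0817, adjusted p = 0.657). The probe sets of AT3G57160 thus disagreed, since 251655_at, which is dim, was called higher in roots (0.65, SE 0.108, adjusted p = 1.71e-05).

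**Figure D5:**
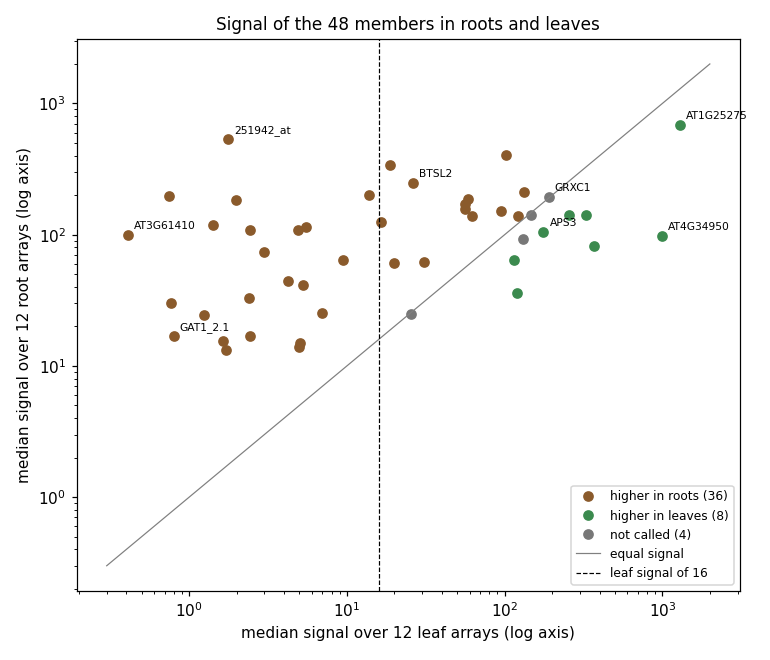
Median signal over 12 root arrays against that over 12 leaf arrays for the 48 members, both on log axes. Colours give the call of roots minus leaves (36 higher in roots, 8 higher in leaves, 4 not called), the grey line marks equal signal and the dashed line a leaf signal of 16. Points left of the dashed line, among them AT3G61410 and GAT1_2.1, have little leaf signal, and AT4G34950 and AT1G25275 lie furthest to the right.

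The members were set beside lists of genes of the Fe response and of other root functions. Of 16 genes of Fe deficiency signalling 12 were measured with 13 probe sets, of which 7 had all 6 root differences above 0.3 (0.488% of all probe sets) and 0 had all 6 below 0. Only BTSL2 is a member. The others were over the leaf limit or on the dropped list. The peptide gene IMA1 differed in the mean by 2.38 and 1.67 in roots of wild type and nas4x-1 and by 4.25 and 5.08 in leaves. The transcription factor gene BHLH039 differed by 2.97 and 1.43 in roots and 2.91 and 4.24 in leaves, and BHLH101 by 2.03 and 1.05 in roots and 1.33 and 2.86 in leaves. Of root Fe acquisition 6 of 10 genes were measured, and 3 had all 6 root differences above 0.3. These 3, the Fe transporter IRT1 and the metal transporters MTP3 and MTP8, are on the dropped list. Of coumarin synthesis and export 9 of 17 genes were measured, and 3 passed in all 6, F6'H1, MYB72 and MYB10, which are named because they are few and were all dropped.

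The other lists held none of the members matched to a gene. Whether the 25 members with no single gene matched belong to any list, those of the Fe response included, is not known here. No probe set had all 6 root differences above 0.3 among 1 measured gene of 17 of ethylene, 1 of 9 of nitrate uptake, 2 of 9 of root hairs, 2 of 8 of organic acids and 1 of 12 of pathogen defence. FRD3, a citrate exporter, differed in the mean by -0.19 in wild type roots and -1.08 in nas4x-1 roots. The genes of the methionine cycle, phosphate starvation, sulfate assimilation and the endodermal barrier were not analysed here, since no probe set was matched to them alone. APS3, which belongs to sulfate assimilation, was not in that list. With so few genes matched, the lists say little about these functions.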

How the data were processed

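Total RNA of roots and leaves was hybridised to 24 Affymetrix ATH1 arrays. The intensities, as deposited, are 1 linear signal for each probe set, which the authors computed with MAS 5.1 in GCOS, scaled to a target of 100 and normalized by quantiles. Column medians were between 38.0 and 38.1, and no further normalization was applied. The number of arrays limits the precision. Without 64 control probe sets, 22746 of 22810 were used. A single gene was found for 13701 (13513 through the platform table, 188 through the paper's tables alone), and those with several (511) or none (8534) are named by their probe set. The paper's tables served for names and for the dropped list only.

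After an offset of 16 and log2, the groups of an organ were fitted together with limma 3.58.1 (R 4.3.3, trend on intensity), and organs over all 24 arrays. Adjustment by Benjamini and Hochberg covered 22746 probe sets, with a threshold of 0.05. An exact test of 3 against 3 arrays cannot go below p = 0.1. The limma fit of genotypes in roots at + Fe was tested on simulated data, with independent noise on each array. The replicate number is the harvest week in the series' design, which pairs the arrays. Residuals of arrays of 1 week correlated at 0.213 to 0.639 (roots) and 0.17 to 0.505 (leaves). For arrays of different weeks the highest values were 0.211 and 0.122. The week as a block was an alternative.

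The members and 14 lists (12 of pathways, the others of organ markers) were chosen with earlier results of these data known. Any member could be named. Values on every array were due for the first 12 matched to a gene, for members in the lists and at the limits, and at most 3 list genes by size of the root difference. Members with array values beyond these were picked after their values were seen. Alternatives were offsets of 1 and 32, quantile normalization within organ, and a filter on the dimmest 40 percent. Others were ranking by the mean, no leaf limit, no trend, only the arrays compared, each array left out, and an ANOVA. The ANOVA approximates the error model named in the study's methods and was not run with the study's tool.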

Additional observations from a re-analysis of the deposited data

How the results depend on the processing

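The members depend on the offset, which shrinks differences of dim probe sets. An offset of 1 gave 54 members, 31 of them shared with the 48, and an offset of 32 gave 34, with 27 shared. Without the dimmest 40 percent of probe sets 37 of the 48 remained, quantile normalization within organ kept all 48, and without the leaf limit there were 92. Ranking by the mean could not change the members, since all 48 candidates were taken. Leaving out 1 array gave 39 to 73 members. The difference of its week then fell away, so without a root array members could only be added and all 48 stayed. The highest counts, 73, came without week 3 of nas4x-1 roots at + Fe or at - Fe, and the lowest, 39, without week 1 of wild type leaves at + Fe or at - Fe.

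Of the genotype comparisons, 0 members were called at + Fe in roots and at both supplies in leaves in all settings run. In roots at - Fe leaving out 1 array gave 0 to 1, with the call of AT3G61930 without the wild type array of week 2. With the harvest week as a replicate block there were 0 calls in all 4 comparisons (lowest adjusted p = 0.387, 0.98, 0.515 and 0.183), and the pairing changed no other call. Median differences in roots were 0.188 to 0.303 at + Fe and 0.179 to 0.232 at - Fe under the other settings, and 0.184 to 0.389 and 0.053 to 0.431 with 1 array left out. The percent of members above 0 was then 60.4 to 97.9 at + Fe and 58.3 to 97.9 at - Fe, highest without the wild type array of week 1. Over all probe sets 4 to 20 were called in roots at + Fe, 5 to 30 in roots at - Fe, 3 to 51 in leaves at + Fe and 4 to 119 in leaves at - Fe. Roots minus leaves gave 34 calls among the 37 members left without dim probe sets, and 42 to 44 of 48 in the other settings. The calls lost were those of 260592_at (offset of 32, ANOVA, and 15 of 24 fits with 1 array left out) and 257022_at (no trend, ANOVA, and 14 of 24).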
